A study of Homo sapiens with 12 samples.

Results

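The genes described here encode the SR proteins and the hnRNPs, which are the best known regulators of pre-mRNA splicing. They were taken by symbol, as every gene of the expression table named SRSF with a number or starting with HNRNP, which gave 33 of 17520 genes. These were 11 SRSF genes, 21 protein-coding HNRNP genes and 1 readthrough gene, HNRNPUL2-BSCL2, which spans HNRNPUL2 and its neighbour. The cells were HEK293E, a line derived from human embryonic kidney. Serum was withdrawn overnight before insulin (200 nM) was added for 30 h in all 12 samples, which form 4 groups of 3: insulin+Torin1 input, insulin input, insulin+Torin1 miCLIP and insulin miCLIP. The insulin+Torin1 groups were also pretreated with Torin1 (250 nM), which blocks the kinase mTOR, and no group without insulin was analysed here. Input libraries held poly(A) RNA, and miCLIP maps N6-methyladenosine (m6A) by crosslinking an antibody to RNA and reading the substitutions it leaves. The replicates are described as biological, without saying whether each was its own culture, and the spread behind each p-value may therefore be technical.

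SR proteins bind exons through RNA recognition motifs and recruit the splicing machinery through a tail rich in arginine and serine, which kinases of the SRPK and CLK families phosphorylate. Many hnRNPs coat nascent RNA and often oppose SR proteins, so that the balance of both families sets which exons are kept. Many genes of both families also control their own levels, by splicing their transcripts into forms that nonsense-mediated decay destroys. m6A is known to change RNA structure and the access of hnRNPs such as HNRNPC to their sites.

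The expression values were in normalized units, set by the authors and not per length, so levels are compared between libraries and never between genes. Library totals were 11418114 to 11438881 units with insulin+Torin1 and 12424643 to 12528454 with insulin. Spacing of the low values put 1 insulin+Torin1 library (replicate 3) at 8200000 reads, and 2 insulin libraries (replicates 1 and 2) at 7319000 and 9088000; depth was not recovered for the other libraries. Of 7 marker genes of the HEK293 line 5 passed the filter on low values, and the list summed to 9022 to 9047 units with insulin+Torin1 and 3774 to 3797 with insulin. VIM made up most of that sum, at 7908 to 7935 units with insulin+Torin1 and 2858 to 2984 with insulin. NEFM went the other way, at 71 to 96 units with insulin+Torin1 and 141 to 221 with insulin, and PAX2 was at 8 to 11 units with insulin+Torin1 and 6 to 11 with insulin. Of 6 markers of differentiated kidney 1 passed, and the summed level of the 4 in the table was 25 to 33 units with insulin+Torin1 and 41 to 44 with insulin. Markers of other cell types also differed by group. The blood list (5 of 6 in the table) summed to 48 to 55 units with insulin+Torin1 and 151 to 168 with insulin, with PTPRC and CD3E at 0 or 1 in every library and CD14 at 0 to 6 units with insulin+Torin1 and 85 to 95 with insulin. The fibroblast and endothelial list (4 of 5) summed to 524 to 546 units with insulin+Torin1 and 190 to 243 with insulin, most of it COL1A1, at 487 to 511 units with insulin+Torin1 and 180 to 233 with insulin. The keratinocyte and hepatocyte list (2 of 4) summed to 8 to 14 units in each group. The part of these lists in the results was not tested.

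Most genes of both families differed between insulin+Torin1 and insulin cells, and more were higher than lower with Torin1. All 11 SRSF and all 21 protein-coding HNRNP genes passed the filter of at least 10 units in at least 3 libraries; HNRNPUL2-BSCL2, at 7, 8 and 1 units with insulin+Torin1 and 9, 7 and 4 with insulin, did not. With limma at an adjusted p below 0.05, 7 SRSF genes rose, 3 fell and 1 was not called, and 17 HNRNP genes rose, 3 fell and 1 was not called. Over all 13842 tested genes 43.4% rose and 42.5% fell, so a call by itself says little here. The share called higher was 63.6% among SRSF genes and 81.0% among HNRNP genes. A change beyond 1.5-fold was called upward for 4 SRSF and 12 HNRNP genes, where 25.0% of all tested genes were, and downward for 1 and 2, where 22.5% were. The values of the groups did not overlap for 10 of 11 SRSF and 20 of 21 HNRNP genes, against 86.3% of all tested genes. In bulk RNA, fewer cells holding a transcript and less of it per cell cannot be told apart.

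**Figure D1:**
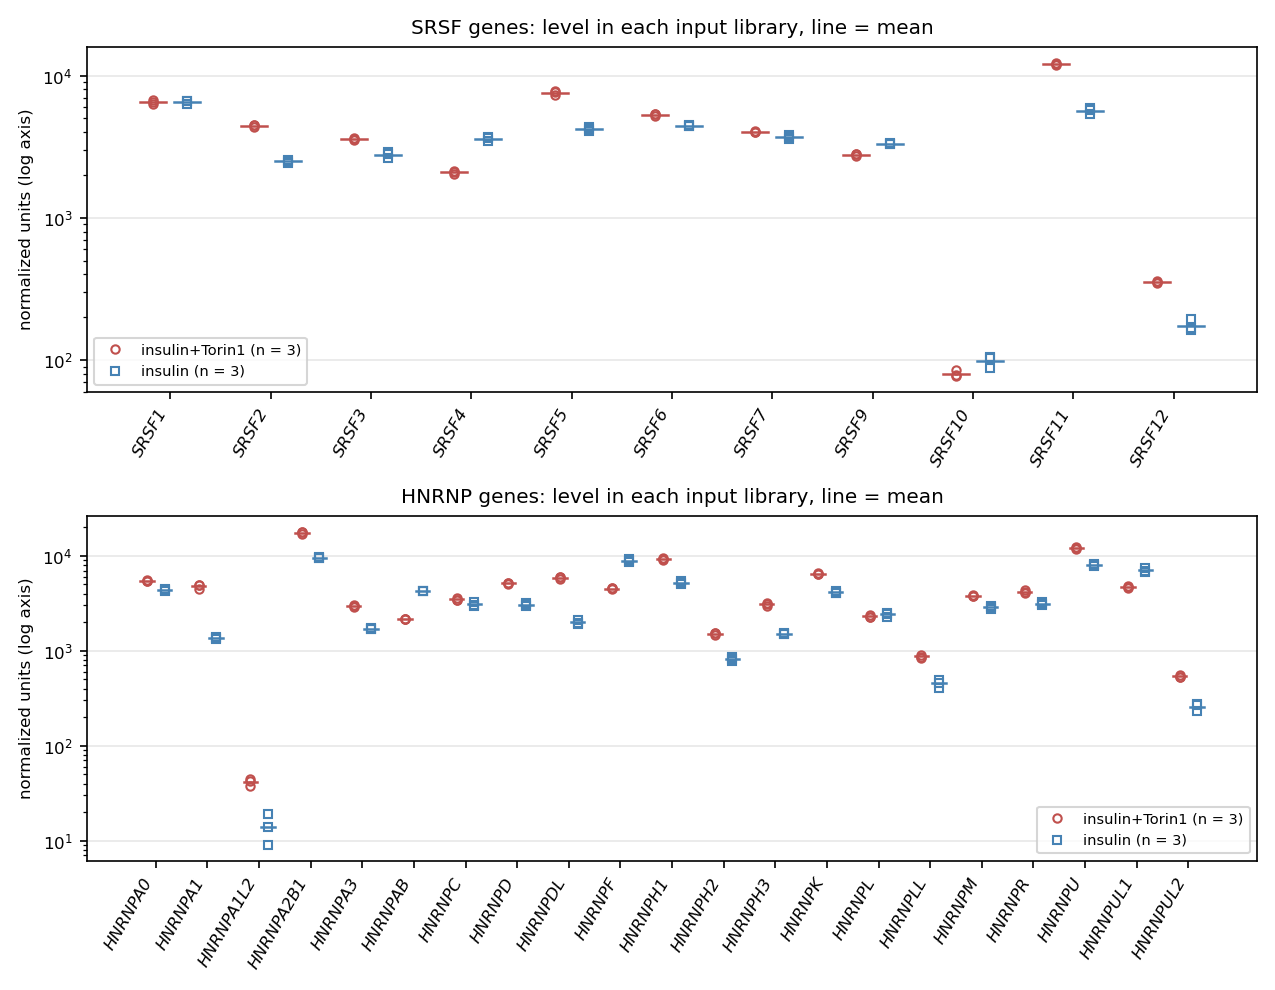
Level of each SRSF and HNRNP gene in the 3 insulin+Torin1 (circles) and 3 insulin (squares) input libraries, in normalized units on a log axis, with a line at each group's mean. Replicates lie close together, and the groups overlap only for SRSF1 and HNRNPL.

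The large rises among SR genes were SRSF11, SRSF12, SRSF5 and SRSF2. SRSF11, which encodes an SR-related protein (chromosome 1, 70205696 to 70253052, GRCh38), was at 12324, 11976 and 11928 units in insulin+Torin1 libraries, against 5352, 5708 and 5957 in insulin libraries. All insulin+Torin1 values lay above all insulin values, and the log2 fold change was 1.09 ± 0.03 (SE; limma adjusted p = 1.3e-18). The scale throughout is log2(value + 1), with insulin+Torin1 over insulin. SRSF12, a gene related to SRSF10, was at 355, 346 and 361 units with insulin+Torin1 (mean 354 ± 7.55, SD, n = 3) and 162, 167 and 194 with insulin (174 ± 17.2), and its log2 fold change was 1.02. SRSF5, another classical SR gene (chromosome 14, 69767142 to 69772005), was at 7784, 7618 and 7252 units with insulin+Torin1 and 4079, 4189 and 4340 with insulin, a log2 fold change of 0.85. SRSF2, which encodes the enhancer-binding protein SC35, was at 4459, 4468 and 4340 units with insulin+Torin1 and 2440, 2542 and 2522 with insulin, a log2 fold change of 0.82. These were the 4 SRSF genes called beyond 1.5-fold upward.

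Other SR genes moved less. SRSF3, the gene of the smallest SR protein, which also takes part in mRNA export, was at 3652, 3610 and 3500 units with insulin+Torin1 and 2641, 2890 and 2818 with insulin, a log2 fold change of 0.37. SRSF6 was at 5376, 5337 and 5212 units with insulin+Torin1 and 4498, 4428 and 4404 with insulin, a log2 fold change of 0.26. SRSF7, whose product carries a zinc knuckle, was at 4090, 4012 and 3983 units with insulin+Torin1 and 3566, 3674 and 3798 with insulin, a log2 fold change of 0.13. In all 3 genes the groups stood apart and the rise was called, but none beyond 1.5-fold. The sizes depend on the scaling: with quantile normalization SRSF3 was at 0.68, SRSF6 at 0.53 and SRSF7 at 0.46, and with scaling to equal totals SRSF7 was at 0.26. The number of SRSF genes beyond 1.5-fold upward was then 5 with quantile normalization and 4 with equal totals. SRSF1, which encodes the prototype splicing factor SF2/ASF, was at 6697, 6567 and 6342 units with insulin+Torin1 and 6357, 6658 and 6603 with insulin. These values overlapped, and the log2 fold change was 0.00 ± 0.03 (limma adjusted p = 0.978), although scaling to equal totals called SRSF1 higher at 0.12 and quantile normalization at 0.20.

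SRSF4, SRSF9 and SRSF10 fell. SRSF4, which encodes an SR protein with a long arginine and serine tail (chromosome 1, 29147743 to 29181900), was at 2092, 2017 and 2138 units with insulin+Torin1 and 3459, 3672 and 3614 with insulin. The groups were well apart, and the log2 fold change was -0.78 ± 0.04 (limma adjusted p = 1.9e-15). SRSF4 was the only SRSF gene called beyond 1.5-fold downward, and with scaling to equal totals or quantile normalization the number of such genes was 0, with SRSF4 at -0.66 and -0.47. SRSF9 was at 2796, 2727 and 2794 units with insulin+Torin1 and 3363, 3312 and 3291 with insulin, a log2 fold change of -0.26, which was -0.14 with scaling to equal totals and 0.050 and not called with quantile normalization. SRSF10, whose product represses splicing when dephosphorylated, was at 77, 78 and 85 units with insulin+Torin1 and 104, 88 and 105 with insulin. Its fall of -0.30 ± 0.14 on the log2 scale had a limma adjusted p of 0.0431, and that call was lost without insulin+Torin1 replicate 1 or 2 and without insulin replicate 1 or 3, where the adjusted p was 0.0931 to 0.125. The SRSF10 call was also lost with scaling to equal totals (-0.18, limma adjusted p = 0.228) and with no filter on low values (limma adjusted p = 0.0526), whereas quantile normalization gave -0.70 (limma adjusted p = 4.8e-05).

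In the hnRNP A/B group, HNRNPA1 rose more than any other HNRNP gene and HNRNPAB fell. HNRNPA1, the gene of a classical silencer of exons (chromosome 12, 54280726 to 54287087), was at 4944, 4935 and 4524 units in insulin+Torin1 libraries, against 1391, 1344 and 1368 in insulin libraries. The lowest insulin+Torin1 value was more than 3 times the highest insulin value, and the log2 fold change was 1.81 ± 0.04 (SE; limma adjusted p = 1.2e-21). RefSeq names 75 HNRNPA1 pseudogenes, which can take part of its reads or lend it theirs, so the level of HNRNPA1 and that of its near copy HNRNPA1L2 are uncertain. HNRNPA1L2 was at 38, 45 and 43 units with insulin+Torin1 and 14, 19 and 9 with insulin, a log2 fold change of 1.57 ± 0.27.

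HNRNPA2B1, the gene of a protein that binds m6A-bearing transcripts, was at 17877, 17971 and 16814 units with insulin+Torin1 and 9435, 9475 and 9659 with insulin, a log2 fold change of 0.88. HNRNPA3, which has 17 named pseudogenes, was at 3050, 2918 and 2997 units with insulin+Torin1 and 1686, 1678 and 1757 with insulin, a log2 fold change of 0.81. HNRNPA0, a gene whose product binds AU-rich elements, was at 5535, 5434 and 5463 units with insulin+Torin1 and 4361, 4288 and 4464 with insulin, a log2 fold change of 0.33. These 3 genes were higher in every insulin+Torin1 library, HNRNPA0 not beyond 1.5-fold, although it was at 0.58 with quantile normalization. HNRNPAB went the other way, at 2178, 2167 and 2180 units with insulin+Torin1 and 4244, 4223 and 4241 with insulin. Its replicates were nearly identical within each group, and the log2 fold change was -0.96 ± 0.03 (limma adjusted p = 4.2e-18).

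The D group rose and the F/H group split. HNRNPDL, a paralog of HNRNPD on the same chromosome (4, 82422564 to 82430462), was at 6019, 5943 and 5676 units with insulin+Torin1 and 1894, 1941 and 2131 with insulin, a log2 fold change of 1.56 ± 0.04 (limma adjusted p = 3.1e-20). HNRNPD, which encodes the AU-rich element binding protein AUF1, was at 5206, 5132 and 5004 units with insulin+Torin1 and 2961, 3040 and 3188 with insulin, a log2 fold change of 0.74. Both D genes therefore lay above all insulin values in every insulin+Torin1 library.

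HNRNPF, HNRNPH1, HNRNPH2 and HNRNPH3 encode related proteins that bind runs of G. HNRNPF (chromosome 10, 43385618 to 43409186) was at 4530, 4558 and 4490 units with insulin+Torin1 and 8544, 9309 and 8903 with insulin, a log2 fold change of -0.98 ± 0.03 (limma adjusted p = 3.7e-18). It had the lowest log2 fold change of the HNRNP genes. HNRNPH1 was at 9506, 9338 and 8977 units with insulin+Torin1 and 5053, 5436 and 5211 with insulin, a log2 fold change of 0.83. HNRNPH1 therefore ran against its relative HNRNPF. HNRNPH3 was at 3180, 3129 and 2965 units with insulin+Torin1 and 1495, 1544 and 1488 with insulin, a log2 fold change of 1.03. HNRNPH2 was at 1538, 1540 and 1483 units with insulin+Torin1 and 812, 775 and 857 with insulin, a log2 fold change of 0.90. In all, 3 of the 4 F/H genes rose and 1 fell, each beyond 1.5-fold.

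The U group was also divided. HNRNPU, which encodes the nuclear scaffold protein SAF-A, was at 12452, 12196 and 11744 units with insulin+Torin1 and 7915, 8213 and 7845 with insulin, a log2 fold change of 0.60. HNRNPUL2 was at 558, 533 and 536 units with insulin+Torin1 and 271, 230 and 276 with insulin, a log2 fold change of 1.07. HNRNPUL1 (chromosome 19, 41262557 to 41307787) fell to 4674, 4816 and 4588 units with insulin+Torin1, against 7459, 6742 and 6866 with insulin, and its log2 fold change was -0.58 ± 0.04 (limma adjusted p = 4.2e-13), or -0.35 with quantile normalization. On the authors' scale HNRNPUL2 was called beyond 1.5-fold, and HNRNPU and HNRNPUL1 were not.

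Of the remaining HNRNP genes, HNRNPLL and HNRNPK rose beyond 1.5-fold. HNRNPLL, known in T cells for control of CD45 splicing, was at 869, 841 and 907 units with insulin+Torin1 and 460, 491 and 407 with insulin, a log2 fold change of 0.95. HNRNPK, whose product binds C-rich RNA through KH domains, was at 6499, 6515 and 6428 units with insulin+Torin1 and 4055, 4067 and 4252 with insulin. Its log2 fold change of 0.65 only just passed the 1.5-fold test (limma adjusted p = 0.0437). HNRNPR was at 4351, 4124 and 4063 units with insulin+Torin1 and 3251, 3062 and 3074 with insulin, a log2 fold change of 0.42. HNRNPM was at 3907, 3736 and 3761 units with insulin+Torin1 and 2761, 2913 and 2957 with insulin, a log2 fold change of 0.40. HNRNPC, whose product binds runs of U, was at 3452, 3558 and 3396 units with insulin+Torin1 and 2996, 3015 and 3258 with insulin, a log2 fold change of 0.17. These 3 genes were called higher, but none beyond 1.5-fold. With quantile normalization HNRNPR was at 0.73, HNRNPM at 0.72 and HNRNPC at 0.48, and 15 rather than 12 HNRNP genes rose beyond 1.5-fold; HNRNPC was at 0.29 with scaling to equal totals. HNRNPL, which encodes a protein that binds CA repeats, was at 2290, 2257 and 2380 units with insulin+Torin1 and 2500, 2467 and 2295 with insulin. These values overlapped, and the log2 fold change of -0.07 ± 0.04 was not called (limma adjusted p = 0.109), while it was -0.11 and called without insulin replicate 3, 0.058 and not called with scaling to equal totals, and 0.24 and called with quantile normalization.

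**Figure D2:**
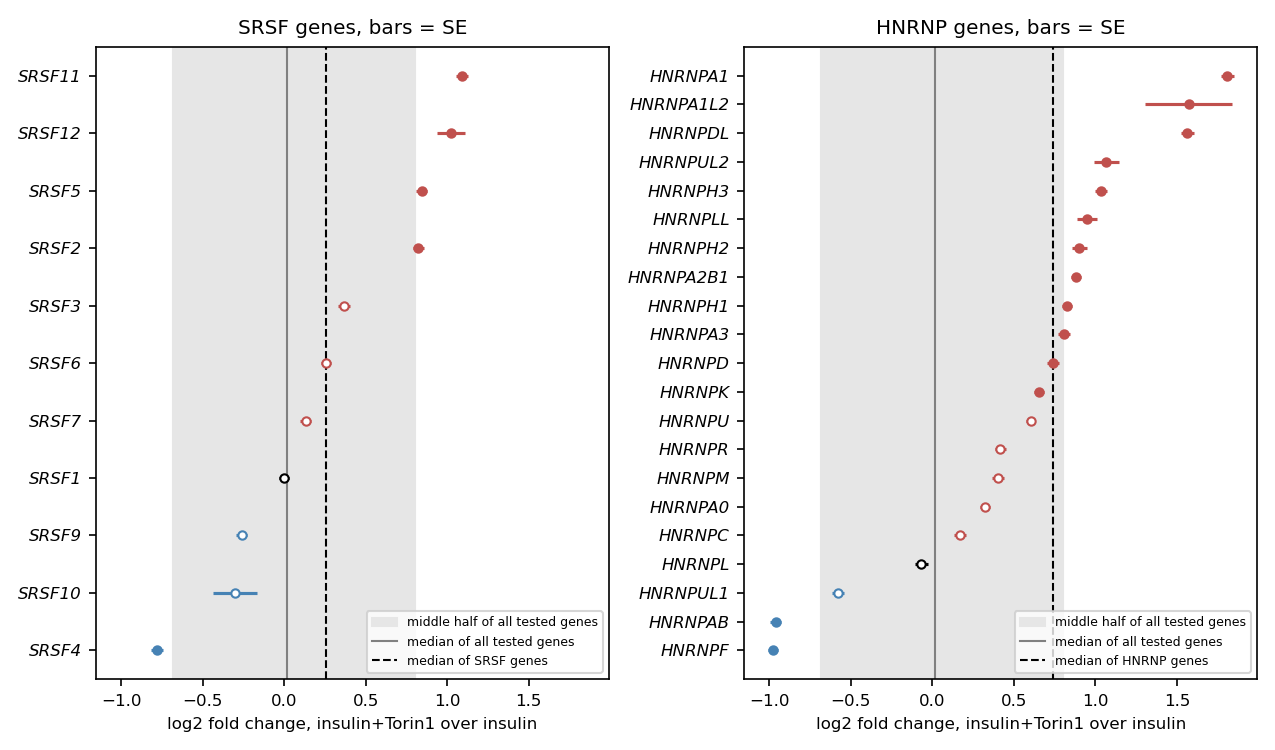
Log2 fold change of each SRSF and HNRNP gene, insulin+Torin1 over insulin, with its SE as a bar; red marks genes called higher, blue called lower, black not called, and filled points changes beyond 1.5-fold. The SRSF median is 0.26 and the HNRNP median 0.74, beside 0.02 for all tested genes; with quantile normalization SRSF1, SRSF9 and HNRNPL change direction.

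Set side by side, the median log2 fold change was 0.26 for SRSF and 0.74 for HNRNP genes, a difference of -0.48, beside 0.02 for all tested genes. No test was made of this difference, since the members were chosen with earlier results known. Scaling to equal totals, which moved the median of all genes to 0.14, put the medians at 0.38 and 0.87, and quantile normalization at 0.53 and 0.90. The SRSF median thus moved by over 1.5 times between scalings, and 8 rather than 7 SRSF genes were called higher and 2 rather than 3 lower under either. Both families ranged widely, the SRSF genes over -0.78 to 1.09 and the HNRNP genes over -0.98 to 1.81. Summed over the family, SRSF genes held 0.420% to 0.435% of each insulin+Torin1 library and 0.289% to 0.303% of each insulin library. The HNRNP genes held 0.862% to 0.897% of insulin+Torin1 libraries and 0.590% to 0.600% of insulin libraries, so both sums were higher with Torin1 in every library. These sums follow the genes with many units. SRSF11 averaged 12076 units with insulin+Torin1 and 5672 with insulin, and HNRNPA2B1 averaged 17554 with insulin+Torin1 and 9523 with insulin.

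Counting can misplace reads for several of these genes. By the RefSeq table of GRCh38, 7 of 11 SRSF and 14 of 21 HNRNP genes have pseudogenes named after them, and the bodies of 4 SRSF and 5 HNRNP genes overlap another protein-coding gene. Whether the authors counted by strand is not given in the sources used here, and the part of these overlaps in the values was not tested.

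The sequence at the start of these genes was examined, since mTOR is known to act on mRNAs that open with C followed by pyrimidines. RefSeq start sequences (GRCh38.p14) were found for 10 SRSF and 20 HNRNP genes, in 12 and 31 windows because some genes have several starts; the start sequences of HNRNPA1 and SRSF2 were not analysed here. A start with C followed by at least 4 pyrimidines occurred in 1 SRSF window, that of SRSF9, and 1 HNRNP window, that of HNRNPA0, beside 4.07% of all 35116 windows. The log2 fold changes of these genes were -0.26 and 0.33, both called but not beyond 1.5-fold. These are mRNA levels, and the part of such starts in them was not tested. The letters CCATTT on either strand, chosen after the sequences were seen, lay within 20 bases before and 10 after the start in 2 SRSF and 5 HNRNP windows, which is 16.7% and 16.1% of them, beside 1.43% of all windows. As the letters were picked from these windows, a higher share in them was built in, and the comparison shows no enrichment. The 5 HNRNP windows belong to 4 genes, and all windows to 27305 genes that were not chosen for being expressed here. The 30-base windows below run 5′ to 3′ on the gene strand, with the motif in capitals. The first ones show it, and the last ones are those of the SRSF gene and the HNRNP gene with the lowest fold change, which lack it. HNRNPH1, HNRNPUL1 and HNRNPF have more than 1 start, and 1 window of each is shown. The other windows of HNRNPUL1 lack the motif, and HNRNPH1 also has windows without it.
SRSF1, chr17:58007237-58007266, minus strand: tgcgccgagctgataaaggcgCCATTTtgg
SRSF3, chr6:36594342-36594371, plus strand: ggcgaggagaaggcggtggtccgCCATTTc
HNRNPH1, chr5:179623392-179623421, minus strand: gagcggaagcggccgccgCCATTTcctttc
HNRNPR, chr1:23344275-23344304, minus strand: ggggagggggtggcgcgcgcgCCATTTcta
HNRNPUL1, chr19:41264352-41264381, plus strand: gggaggcggtggcggcggCCATTTtgagcc
HNRNPA3, chr2:177212774-177212803, plus strand: ttggaagaggcgagtccggtctcaAAATGG
SRSF4, chr1:29181891-29181920, minus strand: gaagcgcgcgctcgcgagctgcgtgctcgc
HNRNPF, chr10:43408848-43408877, minus strand: caggcgggggtttccatggtgatggtcaac

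In HNRNPA3 the motif is on the opposite strand and so reads AAATGG. The genes with the motif had log2 fold changes from -0.58 (HNRNPUL1) through 0.00 (SRSF1), 0.37 (SRSF3) and 0.42 (HNRNPR) to 0.81 (HNRNPA3) and 0.83 (HNRNPH1), so they did not move as 1 group. A match in these letters is a description and not a binding site.

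Genes that act on or beside the families moved in both directions, as did all tested genes, of which 43.4% rose and 42.5% fell. The shares that rose were 55.6% for kinases and import, 42.9% for SR-related proteins, 60.7% for other regulators and 28.6% for core snRNP genes. In the same order, 33.3%, 52.4%, 35.7% and 42.9% fell. Of 9 genes for the kinases and nuclear import of SR proteins, 5 rose and 3 fell, with CLK1 at 1.10, CLK4 at 1.03 and CLK2 at 0.91, all kinases of SR proteins, and DYRK1A at -1.77. The other genes that fell, named here for their direction, were TNPO3 (-0.88) and the SR protein kinase gene SRPK1 (-0.69). Beyond 1.5-fold, 3 genes of this list rose and 3 fell. CLK1 averaged 2034 ± 18.7 units with insulin+Torin1 and 953 ± 67.5 with insulin, while DYRK1A averaged 1212 ± 55.9 units with insulin+Torin1 and 4134 ± 229 with insulin (SD, n = 3 each). Of 21 tested genes for SR-related proteins 9 rose and 11 fell. Examples were LUC7L3 at 1.75, LUC7L at 1.58 and RSRC1 at 1.28, and U2AF2, which encodes the large subunit of the factor that binds the polypyrimidine tract, at -1.02. With scaling to equal totals, as with quantile normalization, 9 rose and 8 fell.

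Among 28 other RNA-binding regulators of splicing, 17 rose and 10 fell, with RBMX at 1.39, RBFOX2 at 1.13, MBNL2 at -1.23 and CELF1 at -1.56. Of 28 tested core snRNP genes 8 rose and 12 fell, but 13 rose and 11 fell with scaling to equal totals and 15 rose and 8 fell with quantile normalization, so the direction of this list depends on the scale. Over all tested genes 6681 rose and 5281 fell with scaling to equal totals, and 5858 rose and 5929 fell with quantile normalization. EFTUD2 (1.44), SNRNP70 (1.21), SF3B3 (1.06) and SNRPG (-0.92) had the largest called changes in it. Of 15 genes of nonsense-mediated decay and the exon junction complex, 12 fell and 3 rose under all 3 scalings, with a median of -0.64. That is 80% lower and 20% higher, beside 42.5% lower and 43.4% higher among all tested genes on the authors' scale. SMG5 (-1.46) and UPF2 (-1.37) are decay factor genes, and MAGOH (-1.27) and EIF4A3 (-1.11) encode parts of the exon junction complex. The 3 genes that rose, named here for their direction, were CASC3 (0.95) and RBM8A (0.82), also of that complex, and SMG8 (0.52). The exon junction complex genes thus moved in both directions.

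**Figure D3:**
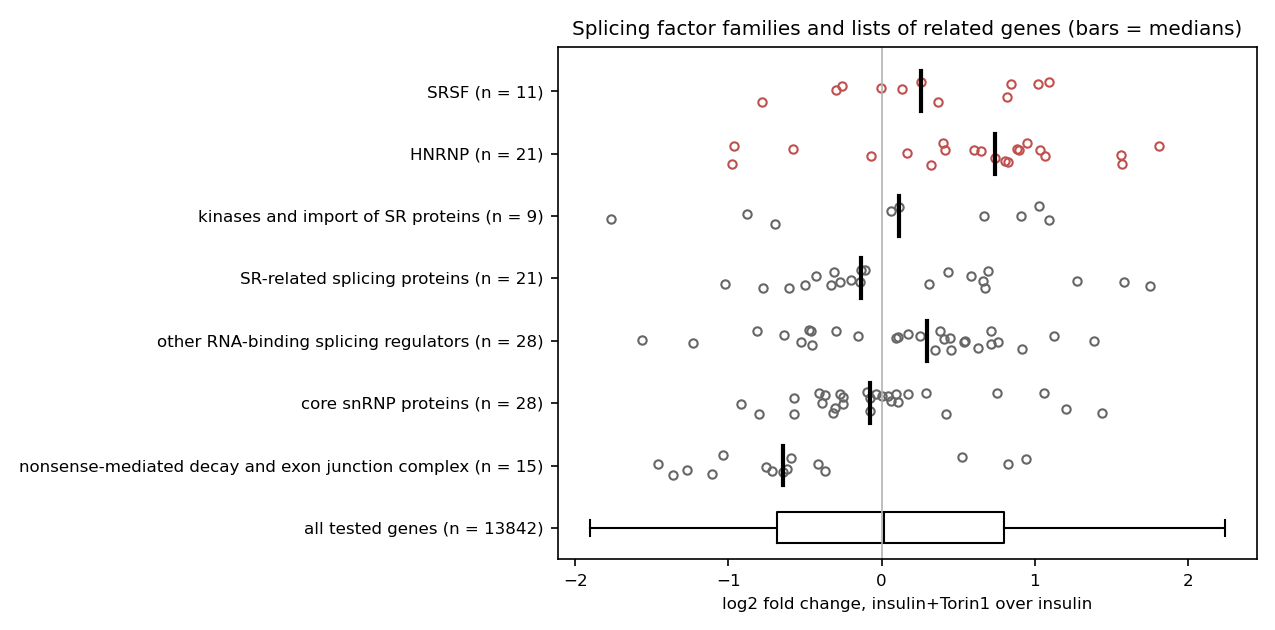
Log2 fold change of the tested members of each family and each list of related genes, insulin+Torin1 over insulin, with a bar at the median; the box shows all 13842 tested genes with its quartiles and whiskers at the 5th and 95th percentile. HNRNP genes have the highest median (0.74) and genes of nonsense-mediated decay the lowest (-0.64); the core snRNP median (-0.07) turns positive with scaling to equal totals and with quantile normalization.

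Each condition has 1 deposited m6A site list, in which each position stands under 1 replicate, so numbers of sites have no replicate test. Sites were counted in the gene body on the gene strand, for the 10 SRSF and 20 HNRNP genes whose strand the RefSeq table gave. The sites of HNRNPA1 and SRSF2 were not analysed here. Every one of these 30 genes had at least 1 site in each list. Many sites rested on 1 substituted read: 57.2% of the families' insulin+Torin1 sites and 63.2% of their insulin sites. In all protein-coding genes with a strand these shares were 58.4% with insulin+Torin1 and 60.3% with insulin. SRSF3, SRSF7, SRSF10, SRSF12, HNRNPA1L2, HNRNPD, HNRNPH3, HNRNPL and HNRNPLL had 0 sites with at least 3 substituted reads in either list. SRSF genes held 73 sites with insulin+Torin1 and 89 with insulin, and HNRNP genes 156 with insulin+Torin1 and 164 with insulin, ratios of 0.820 and 0.951. Over all protein-coding genes with a strand the numbers were 46182 with insulin+Torin1 and 69468 with insulin, a ratio of 0.665. Under replicate 1 alone SRSF genes had 66 sites with insulin+Torin1 and 51 with insulin, a ratio of 1.29. HNRNP genes had 142 with insulin+Torin1 and 94 with insulin, a ratio of 1.51, and all such genes 41078 with insulin+Torin1 and 37337 with insulin, a ratio of 1.10. The direction of all 3 ratios thus depends on the replicates listed, and the part of expression level and depth in them was not tested.

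**Figure D4:**
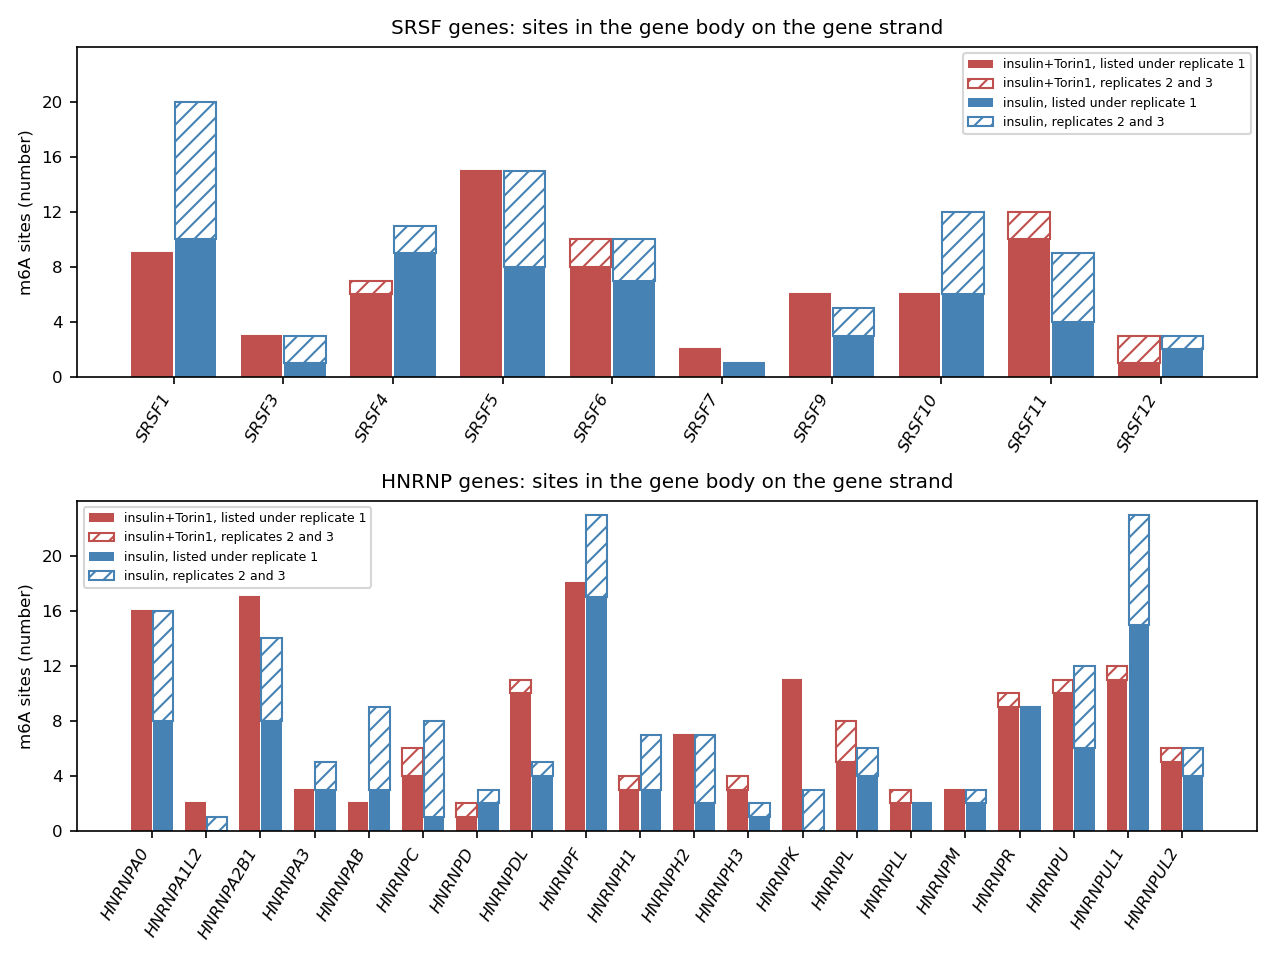
Number of m6A sites in the body of each SRSF and HNRNP gene on the gene strand, in the insulin+Torin1 list (red, left) and the insulin list (blue, right); solid bars are sites listed under replicate 1 and hatched bars those under replicates 2 and 3. HNRNPF and HNRNPUL1 each have 23 sites with insulin, and 208 of all 229 insulin+Torin1 sites stand under replicate 1, against 145 of 253 insulin sites.

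The genes with the most sites over both lists were HNRNPF, HNRNPUL1, HNRNPA0, HNRNPA2B1 and SRSF5. HNRNPF, whose mRNA fell, had 18 sites with insulin+Torin1 and 23 with insulin, 16 of them shared; under replicate 1 these were 18 with insulin+Torin1 and 17 with insulin. HNRNPUL1, whose mRNA also fell, had 12 sites with insulin+Torin1 (11 under replicate 1) and 23 with insulin (15 under replicate 1). The other 3 genes rose. HNRNPA0 had 16 sites in each list, of which 16 with insulin+Torin1 and 8 with insulin stood under replicate 1. HNRNPA2B1 had 17 sites with insulin+Torin1 (17 under replicate 1) and 14 with insulin (8 under replicate 1). SRSF5 had 15 sites in each list, of which 15 with insulin+Torin1 and 8 with insulin stood under replicate 1.

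Site numbers differed most in HNRNPUL1, SRSF1, HNRNPK, HNRNPAB, HNRNPDL and SRSF10, genes named after their site numbers were seen. SRSF1, whose level was not called, had 9 sites with insulin+Torin1 (9 under replicate 1) and 20 with insulin (10 under replicate 1). HNRNPAB, which fell, had 2 sites with insulin+Torin1 (2 under replicate 1) and 9 with insulin (3 under replicate 1). HNRNPK, which rose, had 11 sites with insulin+Torin1 (11 under replicate 1) and 3 with insulin (0 under replicate 1), none of them shared. For SRSF1 and HNRNPAB the lists were thus closer under replicate 1 alone, and for HNRNPK they were not. HNRNPDL, which rose, had 11 sites with insulin+Torin1 (10 under replicate 1) and 5 with insulin (4 under replicate 1). SRSF10 had 6 sites with insulin+Torin1 and 12 with insulin, with 6 under replicate 1 in each list. By gene, 3 SRSF genes had more, 3 fewer and 4 the same number of sites with insulin+Torin1, and 8, 8 and 4 HNRNP genes did; under replicate 1 these were 6, 3 and 1, and 13, 3 and 4.

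Of the sites in both families together, 108 positions were in both lists, which is 47.2% of the 229 insulin+Torin1 sites (Wilson 95% interval 40.8% to 53.6%) and 42.7% of the 253 insulin sites (36.8% to 48.9%). For all protein-coding genes with a strand the shares were 46.3% with insulin+Torin1 and 30.8% with insulin. The median number of reads over a site was 33 in the families and 14 in all such genes with insulin+Torin1, and 16 in the families and 9 in all such genes with insulin; its part in the shares was not tested. The shares rest on replicate 1, under which most sites are listed. Without insulin+Torin1 replicate 1, only 7 SRSF and 14 HNRNP insulin+Torin1 sites were left, so few insulin sites could be shared. The shared part of insulin sites was then 2.25% for SRSF and 1.83% for HNRNP genes. Without insulin replicate 1 it was 39.5% for SRSF and 27.1% for HNRNP genes. As each position stands under 1 replicate, these values do not measure how well replicates reproduce sites. The Wilson intervals cover counting error only, and sites of 1 gene are not independent.

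The base context was described by its letters, with no test. Sites that open with GGAC, with the methylated base the third, made up 22.3% (17.4% to 28.1%) of the families' insulin+Torin1 sites and 19.8% (15.3% to 25.1%) of their insulin sites, against 32.7% with insulin+Torin1 and 30.8% with insulin in all protein-coding genes with a strand. In SRSF genes the shares were 17.8% (10.7% to 28.1%) with insulin+Torin1 and 14.6% (8.74% to 23.4%) with insulin. In HNRNP genes they were 24.4% (18.3% to 31.7%) with insulin+Torin1 and 22.6% (16.8% to 29.5%) with insulin. All of these intervals lay below the shares of all such genes. Under replicate 1 the SRSF shares were 18.2% (10.7% to 29.15%) with insulin+Torin1 and 13.7% (6.81% to 25.7%) with insulin. These intervals lay below the 32.9% with insulin+Torin1 and 33.0% with insulin of all such genes under replicate 1. The HNRNP shares under replicate 1 were 26.8% (20.2% to 34.6%) with insulin+Torin1 and 26.6% (18.7% to 36.3%) with insulin, intervals that hold those values. Likewise GGACT made up 9.61% (6.43% to 14.1%) of the families' insulin+Torin1 sites and 8.30% (5.49% to 12.4%) of their insulin sites, intervals that hold the 12.1% with insulin+Torin1 and 11.0% with insulin of all such genes. The last 2000 nt of the gene body held 29.3% of the families' insulin+Torin1 sites and 29.6% of their insulin sites, near the 34.0% with insulin+Torin1 and 32.8% with insulin in all such genes, but with marked differences between genes. All 7 sites of SRSF4 with insulin+Torin1 and 9 of 11 with insulin lay there, and so did all 7 of HNRNPH2 in each list, whereas HNRNPA0 had 0 of 16 in each; these 3 genes were picked here for these numbers. Distances were taken to the end of the RefSeq gene body, and the mRNA ends in use in these cells were not examined.

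Single sites show how few reads were substituted. The most substituted reads in the insulin+Torin1 list were at SRSF5 (chromosome 14, 69771462, hg38, AAACT), with 23 of 647 reads, or 3.56% (2.38% to 5.28%), and 6 of 115 with insulin, or 5.22% (2.41% to 10.9%). SRSF1 (chromosome 17, 58003874, GAACA) had 18 of 296 reads with insulin+Torin1, or 6.08% (3.88% to 9.41%), and 13 of 259 with insulin, or 5.02% (2.96% to 8.40%). HNRNPUL1 (chromosome 19, 41264565, GGACA) had 17 of 118 reads with insulin+Torin1, or 14.4% (9.19% to 21.9%), and 9 of 59 with insulin, or 15.3% (8.24% to 26.5%). At these 3 sites the intervals of the lists overlapped.

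The insulin list led with HNRNPA0 (chromosome 5, 137753963, GGACT), at 7 of 709 reads with insulin+Torin1, or 0.987% (0.479% to 2.02%), and 24 of 274 with insulin, or 8.76% (5.96% to 12.7%). This site was chosen for its substituted reads with insulin, which favours a higher share there, so the values are a description. HNRNPF had the next sites, at 12 of 707 reads with insulin+Torin1 (1.70%) and 17 of 514 with insulin (3.31%) at 43387242 (GGACT, chromosome 10). At 43387648 (GGACA) it had 7 of 271 reads with insulin+Torin1 (2.58%) and 15 of 261 with insulin (5.75%). Another HNRNPF site had 5 of 210 reads with insulin+Torin1 and 15 of 183 with insulin, a tie in substituted reads, and came after it for its fewer reads. The 6 sites given by position were in both lists under replicate 1.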

How the data were processed

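Input expression was measured in 6 libraries and m6A in 6 miCLIP libraries, grouped by the sample titles. The submitters' processing notes name hg38, BWA 0.7.1, STAR, DESeq2 1.22.2 and DESeq, with no step given for each. The expression values the authors deposited are whole numbers whose low values skip integers in 3 libraries, so they were treated as a normalized and rounded score and not as raw reads. The fraction the authors deposited for each m6A site equals substituted reads divided by all reads in every line of the files.

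Genes of at least 10 units in at least 3 libraries were fitted on the log2(value + 1) scale with a variance trend (limma 3.58.1, R 4.3.3), with Benjamini-Hochberg adjustment over all tested genes; changes beyond 1.5-fold were tested with limma's treat. The procedure was tested on simulated data. Sites were placed in RefSeq gene bodies (GRCh38.p14, symbols matched for 90.0% of table genes), with the strand taken from RefSeq start sequences. Members and gene lists were chosen with earlier results of these data known; all members, up to 4 called genes with the largest change per related list, the 5 genes with most sites and the 3 sites with most substituted reads per list are named, and genes singled out otherwise are stated as such. Alternatives were other pseudocounts, filters and scalings, a replicate block, and replicates left out. Same-numbered libraries did not deviate together (correlations of -0.0234, 0.00972 and -0.00399), so the numbers were not used as pairs.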

Additional observations from a re-analysis of the deposited data

How the results depend on the processing

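The counts of called SRSF and HNRNP genes and of called genes in the related lists stayed within 1.5 times their value in all alternatives tried. The number of SRSF members beyond 1.5-fold lower was 0 with scaling to equal totals and with quantile normalization. These settings gave an SRSF family median log2 fold change of 0.38 and 0.53 and an HNRNP family median log2 fold change of 0.87 and 0.90. The difference of family medians was -0.38 with quantile normalization. Leaving out 1 input library gave an HNRNP family median log2 fold change of 0.72 to 0.77 and a difference of family medians of -0.52 to -0.45. The SRSF1 log2 fold change was 0.12 with scaling to equal totals and 0.20 with quantile normalization, the SRSF9 log2 fold change 0.050 and the HNRNPL log2 fold change 0.24 with quantile normalization; the cause was not tested. With the replicate number as a block, 9 SRSF and 20 HNRNP genes were called, and the call of SRSF10 was lost (limma adjusted p = 0.0558); the numbers did not pair the samples.

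Numbers of m6A sites depended strongly on the settings. With at least 3 substituted reads, SRSF m6A sites numbered 21 with insulin+Torin1 and 13 with insulin, and HNRNP m6A sites 40 with insulin+Torin1 and 30 with insulin. All protein-coding genes with a strand held 8970 such sites with insulin+Torin1 and 11910 with insulin, the other direction. This too depends on the replicates listed. Under replicate 1 these genes held 8506 such sites with insulin+Torin1 and 7749 with insulin. SRSF genes then held 20 with insulin+Torin1 and 10 with insulin, and HNRNP genes 39 with insulin+Torin1 and 21 with insulin, the same direction. With at least 3 substituted reads and all replicates, the shared m6A sites were 33.33% of SRSF insulin+Torin1 sites, 53.85% of SRSF insulin sites and 53.33% of HNRNP insulin sites. With at least 10 reads, SRSF genes had 58 insulin sites, and 53.51% of HNRNP insulin+Torin1 and 53.98% of HNRNP insulin sites were shared. With both lists limited to replicate 1, SRSF genes had 51 and HNRNP genes 94 insulin sites, and the shared sites were 33.33% of SRSF insulin+Torin1, 34.51% of HNRNP insulin+Torin1 and 52.13% of HNRNP insulin sites. Leaving out the sites of 1 replicate gave 7 to 73 SRSF sites with insulin+Torin1 and 38 to 89 with insulin, and 14 to 156 HNRNP sites with insulin+Torin1 and 70 to 164 with insulin. The shared part then ranged over 20.55% to 54.41% of SRSF insulin+Torin1 sites, 2.247% to 44.44% of SRSF insulin sites, 12.18% to 46.85% of HNRNP insulin+Torin1 sites and 1.829% to 50.98% of HNRNP insulin sites. The lowest values came from leaving out replicate 1, which holds most sites.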

Other observations

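The body of HNRNPL held 0 sites on the strand opposite to the gene in the insulin+Torin1 list and 16 in the insulin list, and that of SRSF9 held 1 in the insulin+Torin1 list and 8 in the insulin list. Both genes were singled out after these numbers were seen, and sites on the opposite strand were not counted for any gene above. The body of SRSF9 overlaps the protein-coding gene GATC, and that of HNRNPL overlaps no other protein-coding gene. The whole lists held 63578 sites with insulin+Torin1 and 96671 with insulin, and the opposite-strand sites were not split by replicate.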
